A study of Mus musculus with 5 samples.

Results

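Gfi1 ChIP-seq was carried out on 2 MG medulloblastomas, and the peaks found in both tumors are described here. A peak of tumor 1 (replicate 1) was kept when at least 1 bp of it was covered by a peak of tumor 2 (replicate 2), which left 20685 of the 36836 peaks of tumor 1, from a series whose 4 peak lists hold 125494 peaks. Read from the other side, 21221 of the 25078 peaks of tumor 2 had such a partner. MG tumors were grown from Prominin1+, lineage-negative stem cells sorted from the cerebella of C57BL/6 mice on postnatal days 5 to 7, infected with retroviruses for a stabilized mutant Myc and for Gfi1, and transplanted into the cerebella of immunodeficient NSG mice. Chromatin came from snap-frozen tumors of tumor-bearing hosts and was precipitated with a rabbit antibody to Gfi1. Both tumors carried both viruses, so Gfi1 was overexpressed in every sample and there was no group without it. The labels list the input control as a pool of tumors made with Myc and Gfi1b. With a single group and 2 tumors no difference was tested, and each tumor's own value stands beside the mean. Host cells can remain in such tumors, and binding in fewer cells cannot be told apart from weaker binding in all of them.

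Gfi1 is a zinc finger transcription factor that represses its targets. Its N-terminal SNAG domain recruits Lsd1, a histone demethylase, together with CoREST proteins and, in reports from blood cells, histone deacetylases. When the study precipitated Gfi1 from MG tumor lysates, Lsd1 and CoREST came with it, whereas HDAC1 and HDAC2 were not detected. The zinc fingers of Gfi1 recognize sites with an AATC core. In blood it restrains stem cell cycling and directs myeloid differentiation, and in some medulloblastomas it is switched on when the gene is placed beside a foreign enhancer. Many mammalian promoters lie in CpG islands, stretches in which the CG dinucleotide has been kept. Genes used in every cell mostly start in such islands, whereas genes of a single tissue, such as the olfactory receptors, mostly do not.

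Sequences of 3 promoters span the range met in the data, from the third-highest peak to promoters in neither list. Each holds the 250 bases before the RefSeq start of the gene (GRCm38.p6), with every CG dinucleotide in capitals. Per1, a repressor of the circadian clock, lay under one of the highest peaks (chr11:69098699-69098948, plus strand, 9 CG). Ptf1a, a bHLH factor of GABAergic cerebellar neurons, is rich in CG but was in neither list (chr2:19445413-19445662, plus strand, 19 CG). Olfr1, an olfactory receptor, has no CG in this window and was in neither list (chr11:73399496-73399745, minus strand).

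Per1: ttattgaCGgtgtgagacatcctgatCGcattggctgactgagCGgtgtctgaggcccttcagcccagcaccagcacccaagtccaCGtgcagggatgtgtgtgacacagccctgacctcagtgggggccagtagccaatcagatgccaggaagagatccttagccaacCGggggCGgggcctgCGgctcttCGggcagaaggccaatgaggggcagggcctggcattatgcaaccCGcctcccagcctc
Ptf1a: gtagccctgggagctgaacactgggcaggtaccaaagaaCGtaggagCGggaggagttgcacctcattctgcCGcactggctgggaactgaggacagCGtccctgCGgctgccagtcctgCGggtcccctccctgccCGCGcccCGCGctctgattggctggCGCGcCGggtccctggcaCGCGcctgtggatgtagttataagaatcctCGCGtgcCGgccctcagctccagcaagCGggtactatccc
Olfr1: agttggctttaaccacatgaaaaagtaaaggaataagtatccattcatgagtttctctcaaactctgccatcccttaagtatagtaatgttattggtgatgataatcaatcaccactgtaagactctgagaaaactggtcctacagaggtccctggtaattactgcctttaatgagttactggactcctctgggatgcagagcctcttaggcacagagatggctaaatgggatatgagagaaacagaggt

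Occupancy was ranked by the score of each peak, since the peak lists give neither read counts nor summits. The score started at 50.01 and was massed at 3100, the value of 805 peaks of tumor 1 but only 12 of tumor 2. It was therefore used as a percentile within its own list, and the reproducible peaks were ordered by the mean of both percentiles. The percentiles of the tumors correlated with a Spearman rho of 0.721 across the 20685 peaks, 0.758 where the peak lay within 1000 bp of a transcription start site (TSS) and 0.422 where it did not. These are correlations across peaks, which are not replicates. In the top decile (2069 peaks, mean percentile 92.1 to 99.8), 1840 peaks were also in the highest 10% of each tumor's own list. Peaks seen in 1 tumor were weaker. The 16151 peaks of tumor 1 alone had a median percentile of 27.6 and a median width of 1063 bp, against 71.2 and 1885 bp for its shared peaks. The 3857 peaks of tumor 2 alone lay at a TSS in 14.1% of cases, against 63.6% of the reproducible peaks.

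Gfi1 peaks were concentrated at the starts of genes. Windows of 1000 bp on each side of every annotated TSS made up 6.05% of the genome. Some part of 13155 of the 20685 peaks (63.6%) lay in them, or 82.1 per Mb. The remaining peaks were placed by their midpoint, so the densities below are not counted alike and this one is raised by peak width. Introns held 3.91 peaks per Mb and intergenic sequence 2.01 per Mb. Exons away from a TSS held 770 peaks, 9.13 per Mb. Only 1989 peaks (9.62%) had their midpoint in repeat-masked sequence, which makes up 36.4% of the genome. The share at a TSS fell with rank at every step, from 97.2% of the top decile to 20.4% of the lowest. Median width fell in parallel, from 3077 to 966 bp in tumor 1 and from 3357 to 1058.5 bp in tumor 2. Percentile and width correlated with a Spearman rho of 0.731 in tumor 1 and 0.797 in tumor 2. A wider peak meets a TSS window more easily, and the part of width in the TSS share was not tested. The mean number of CG dinucleotides within 100 bp of the midpoint went from 15.5 to 4.70.

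**Figure D1:**
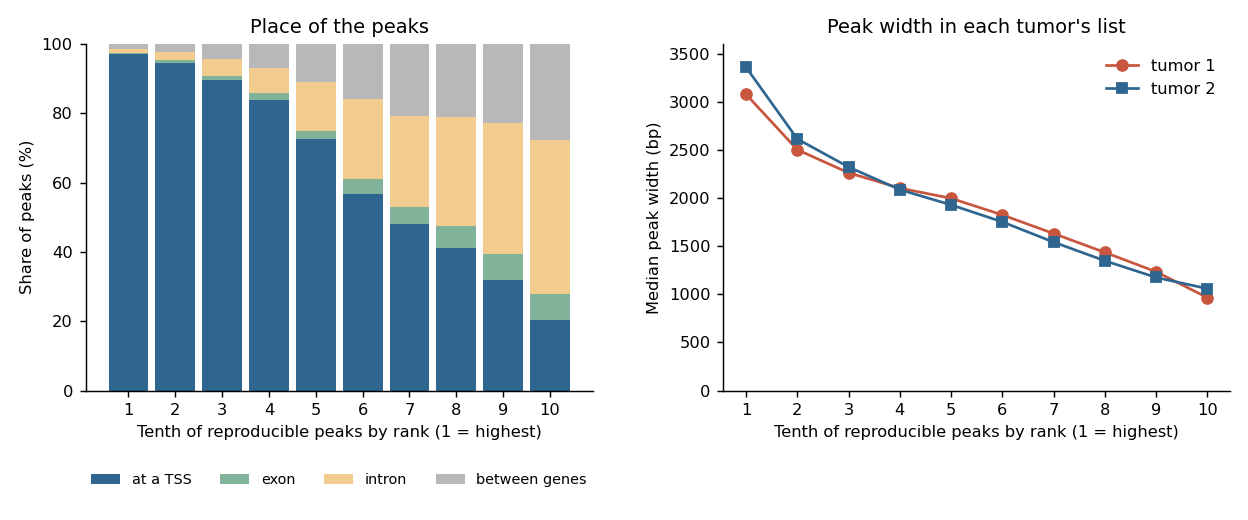
Place of the reproducible Gfi1 peaks (left, stacked shares in percent at a TSS, in an exon, in an intron or between genes) and median peak width in bp in each tumor (right), by decile of rank (1 = highest). The share at a TSS falls from 97.2% to 20.4%, and the widths of both tumors fall together.

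By this rank the 9 first peaks were those of the 20 highest that scored above 3100 in tumor 1. Whether they were stronger than the peaks tied at 3100 is not known. The first lay between Mynn, a zinc finger gene, and Actrt3 (chr3:30599188-30603487, mm10), with percentiles of 99.95 in tumor 1 and 99.73 in tumor 2. It was followed by Pla2g6, which encodes a phospholipase (chr15:79322565-79329760, 99.97 and 99.70), and by Per1 (chr11:69093505-69101591, 99.73 and 99.83). Sde2, which acts in splicing and genome stability, ranked 4th (chr1:180847378-180851970). Cdk4, the G1 kinase that partners D cyclins, shared the 5th peak with March9 (chr10:127059628-127067297, 99.93 and 99.38). The 6th peak covered 3 replication-dependent histone genes, Hist1h2ad, Hist1h2bf and Hist1h3d (chr13:23573121-23576652, 99.84 and 99.42). Next came the starts of Fbxl12 and Ubl5, of Fbxl19, a CpG island-binding F-box protein, and of Pex13 and Pus10. Of the 20 highest peaks, 19 lay at an annotated TSS and 9 were equally near to more than 1 coding gene. The exception lay 3395 bp from Aurkb, a mitotic kinase, and had the highest score of the whole tumor 2 list (3177.21). Behind these came a group with the tied score of 3100 in both tumors, which cannot be ordered among themselves. It held Sin3a, the scaffold of a histone deacetylase complex, Brd2, a reader of acetylated histones, Hnrnpl, which regulates splicing, Jun, a subunit of the AP-1 factor, and Fancm with Fkbp3. Slc27a1, a fatty acid transporter, Klhdc4, and Cryzl1 with Itsn1 belonged to it too, as did a peak at noncoding genes 11563 bp from the nearest coding start, that of Nanos3.

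Of 21938 protein-coding genes, 11856 had a reproducible peak within 1000 bp of a TSS, which is the background of 54% for every list of genes below. A peak of the top decile was present at 11.6% of them. The median mean percentile over occupied genes was 81.5. Lists were drawn up by gene name or known role, and each is set against these background values. The values do not allow for CpG content, which is described below. Of all genes with a CpG-rich promoter 85.1% had a peak, against 7.66% of CpG-poor ones. Such CpG-rich genes were 44.5% of all coding genes, 100% of the Myc network, 92% of the Polycomb list, 85% of the p53 pathway and 0% of the olfactory receptors. The part of CpG content in the count of each list was not tested.

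Genes of most basic cell functions were nearly all occupied. All 34 tRNA synthetase genes, all 78 genes of mitochondrial ribosomal proteins and all 40 of the DNA replication list had a peak. Their levels were ordinary in rank, with median mean percentiles of 85.7, 81.5 and 82.1. Mcm7, a subunit of the replicative helicase, was the highest of the replication genes (98.6 in tumor 1 and 99.7 in tumor 2). Cytosolic ribosomal proteins ranked higher, with 81 of 84 genes occupied, a median of 91.7 and Rpl36 in front (98.6 and 99.5). The 3 without a peak were Rpl10l, Rpl39l and Rpl3l, copies of widely used ribosomal genes with restricted expression. Splicing factors and hnRNPs stood higher still, with 53 of 55 genes occupied and 32 (58.2%) in the top decile, Srsf10 and Hnrnpa2b1 among them. Ubiquitin-conjugating enzymes (29 of 37) and Rab GTPases (47 of 59) were occupied less completely. The proteasome ranked lower than the splicing factors. There 47 of 50 genes were occupied with a median of 82.6, and among the 3 without a peak were Psma8 and Psmb11, subunits particular to testis and thymus.

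Replication-dependent histones, genes expressed in S phase, had the highest median rank and the highest top-decile share of the classes examined, though not the highest share of genes with a peak. Of 67 genes, 63 had a peak and 49 (73.1%) had a peak of the top decile, with a median mean percentile of 95.8. These genes lie in tight clusters, and a single peak can cover several of them, as at Hist1h2ad. The genes without a peak included Hist1h1t, Hist1h2aa and Hist1h2ba, which serve the testis. Hist1h1d had no reproducible peak within 1000 bp of a TSS either, while a peak of the tumor 2 list lay there (94.3). Peaks found only in tumor 2 reached 80.3 at most. The peak at Hist1h1d thus overlapped a tumor 1 peak that did not come within 1000 bp of this gene's start, and it was not particular to tumor 2. Genes for lysine demethylases and methyltransferases, the enzymes that write and remove histone methylation, were also high. There 33 of 34 were occupied with a median of 93.8, led by Kmt2e, Setd5 and Kmt5b, and the exception was Kdm5d on the Y chromosome. Polycomb proteins were occupied at 24 of 25 genes, with Pcgf2 (98.6 in tumor 1 and 99.7 in tumor 2) among the highest. By contrast, zinc finger genes listed by their Zfp name had a peak at 310 of 394 genes but a median of only 74.9. The name does not fix the type of zinc finger, and Gfi1b is not in this list. The list therefore does not stand for the family of Gfi1.

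Immediate early genes, which are transcribed within minutes of a stimulus, ranked near the histones. Of 25 genes 24 had a peak, 14 of them in the top decile, and the median was 95.2. Jund, a further AP-1 subunit, had percentiles of 98.6 in tumor 1 and 99.9 in tumor 2. Ier2 (98.6 and 99.8) and the orphan receptor gene Nr4a2 (98.6 and 99.7) stood beside it. Egr4 was the member without a reproducible peak, with a peak at the percentile of 83.3 in tumor 1 alone. Genes of the G1 phase were occupied at 27 of 29, with Cdk4, its partner Ccnd1 (98.6 and 99.9) and the cyclin-dependent kinase inhibitor Cdkn1b (98.6 and 99.6) the highest. The inhibitors Cdkn1c and Cdkn2a had a peak in tumor 1 only. Mitosis and APC/C genes had a peak at 37 of 37, among them Fzr1, an activator of the APC/C, and its inhibitor Fbxo5.

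In the Myc network 12 of 13 genes were occupied, with a median of 90.5. The highest were Mxi1 (98.6 in tumor 1 and 99.7 in tumor 2) and Mnt (98.6 and 99.1), which encode repressors that compete with Myc for its partner Max. Mycn was in the list of tumor 1 alone. Of the p53 pathway, 17 of 20 genes had a peak. Bbc3, the gene of the proapoptotic protein Puma, was the highest (98.6 and 99.4), and Trp53 followed (96.9 and 98.7). Fas, a death receptor, was in neither list.

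Genes around Gfi1 itself were mostly occupied, at levels that differed between lists. Of the genes for Gfi1 and its Lsd1-CoREST partners 10 of 11 had a peak, with a median of 85.2. The deacetylase gene Hdac2 was the highest (99.9 in tumor 1 and 94.2 in tumor 2), and Hmg20b, which belongs to the Lsd1-CoREST complex (98.6 and 94.1), and Rcor1, which encodes CoREST (98.6 and 77.5), were also high. The peak at the Gfi1 gene differed between the tumors, with percentiles of 83.0 in tumor 1 and 15.3 in tumor 2. At Myc they were 73.9 and 47.3. The viruses carry both genes too, and the part of viral copies in these peaks was not tested. The paralog Gfi1b was in neither list. Among the SNAG-domain repressors 8 of 10 genes had a peak, with a median of 63.3, and none was in the top decile, Snai1 being the highest (94.5 and 85.2). Genes described as Gfi1 targets in blood cells were occupied at 11 of 14. Id2 (98.6 and 98.5) and Id1 (96.1 and 99.0), inhibitors of bHLH factors, and Cdkn1a, the p21 gene (93.6 and 94.7), were high, whereas Hoxa9 and Meis1 were in the list of tumor 1 alone.

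At genes that direct development the tumors differed widely. Of 39 Hox genes, 35 were in the list of tumor 1 but 1 in that of tumor 2, Hoxd9 (87.5 in tumor 1 and 50.3 in tumor 2). All 19 Sox genes were in the list of tumor 1 and 9 had a reproducible peak, with Sox4 (98.6 and 98.1), Sox9 (98.6 and 96.7) and Sox12 (96.1 and 98.2) high in both. Wnt ligands were reproducible at 11 of 19 genes against 18 in tumor 1. Fox genes were occupied at 21 of 44, and among the highest were the FoxO members Foxo3 (98.6 and 99.5) and Foxo1 (98.6 and 92.7). Proneural and granule neuron bHLH genes had a reproducible peak at 1 of 15, Neurog2 (89.7 and 52.2), while 8 were in the list of tumor 1. Atoh1, which specifies granule neuron precursors, and Neurod1 and Neurod2 belonged to these 8. Over all coding genes the shares were 65.0% in tumor 1 and 54.3% in tumor 2.

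The study named or tested 14 differentiation genes chosen on its own samples, so their counts are no independent evidence. Those it tested for effects on tumor growth, Fbxo5, Bmpr1a, Lrig3, Nfia and Smad4, were picked among genes bound by Gfi1. The others were named as strongly lowered in MG tumors. Of the 14 genes 8 were occupied. They were all of the tested genes, with Neurog2, Zic1 and Barhl1. Fbxo5 (98.6 in tumor 1 and 95.7 in tumor 2), Lrig3 (96.4 and 88.8) and Nfia (89.9 and 86.3) were among the highest. Dcc and Ptf1a were in neither list. In the Shh pathway, which drives granule precursor division, 10 of 13 genes had a peak. Its receptor and target Ptch1 (98.6 and 98.7), the inhibitor Sufu (98.6 and 98.0) and the factor Gli1 (97.4 and 95.8) were high. The ligand gene Shh itself was near the bottom of the tumor 1 list (4.36) and absent from that of tumor 2.

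**Figure D2:**
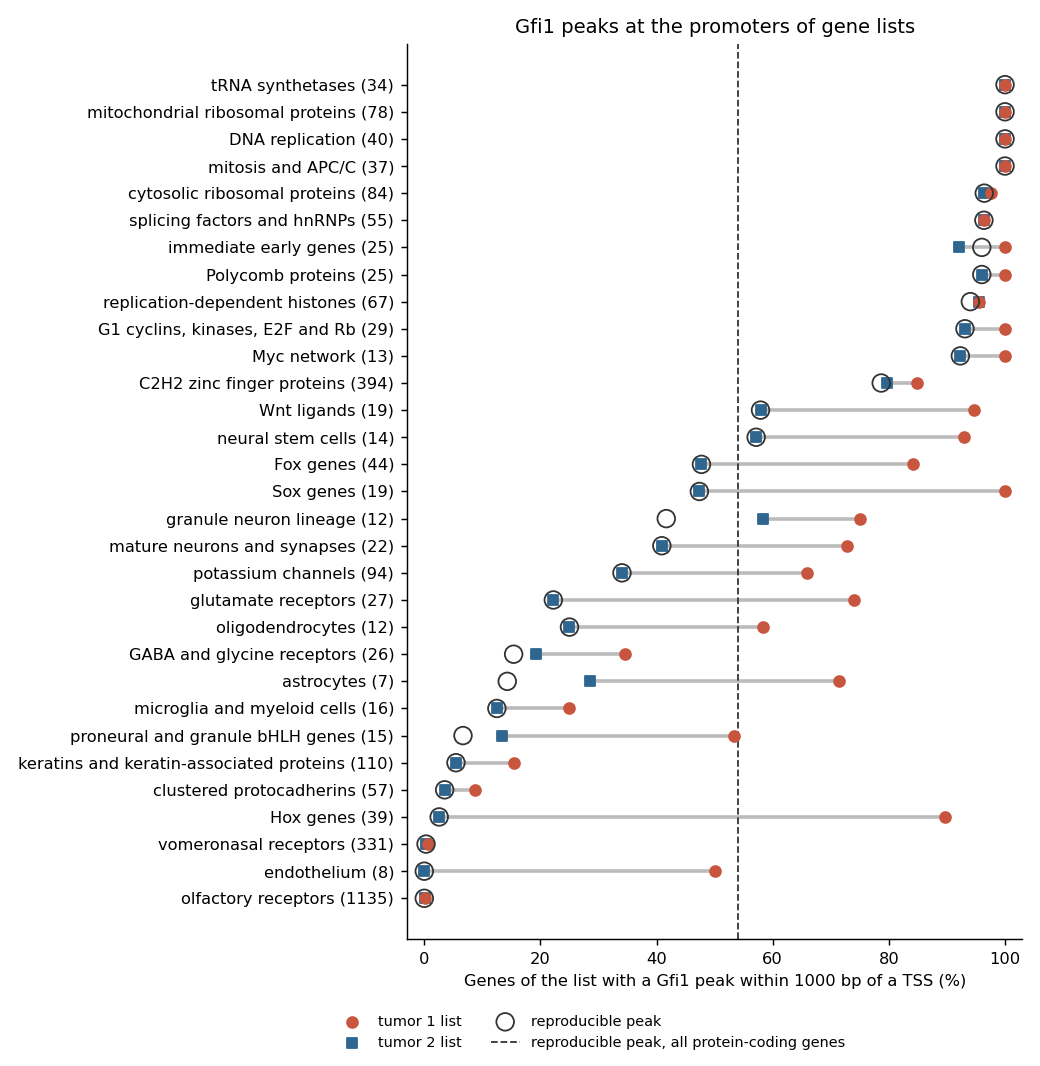
Share of genes of each class, in percent, with a Gfi1 peak within 1000 bp of a TSS, as circles and squares for each tumor's own list and open circles for reproducible peaks, with the number of genes in brackets and a dashed line at the 54% of all coding genes. Classes of basic cell functions lie far above the line, and the Hox, Sox and Fox genes are far apart between the tumors.

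Markers of the cerebellar lineages were occupied less often than basic cell functions. Neural stem cell genes had a peak at 8 of 14 (57.1%), near the 54% of all coding genes. They were led by Hes1 (98.6 in tumor 1 and 97.5 in tumor 2) and Notch1 (98.6 and 97.3), a Notch target and a Notch receptor. Nes and Prom1, the marker used to sort the cells, were in the list of tumor 1 alone. Granule neuron lineage genes had a peak at 5 of 12, with Zic2 (98.6 and 94.9) in front, and mature neuron genes at 9 of 22 with a median of 54.8. Among receptors of synapses, 6 of 27 glutamate receptor genes and 4 of 26 GABA and glycine receptor genes were occupied. Potassium channels were occupied at 32 of 94 genes. Oligodendrocyte markers had a peak at 3 of 12 and astrocyte markers at 1 of 7, Gja1.

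Genes of other tissues were mostly occupied less often than all coding genes. No olfactory receptor gene had a reproducible peak among 1135, and each tumor's list held 1. Of 331 vomeronasal receptor genes 1 had a peak, Vmn1r4, and of 64 defensin genes none did. Clustered protocadherins, whose alternative first exons give neurons surface identities, were occupied at 2 of 57, Pcdhgc3 (85.9 in tumor 1 and 84.9 in tumor 2) and Pcdhgc4. Of 8 endothelial markers none had a reproducible peak, while 4 were in the list of tumor 1. Erythroid markers were occupied at 4 of 10, lymphoid markers at 3 of 14 and major histocompatibility genes at 9 of 34, and solute carriers, which many tissues use, at 54.2% of 371 genes. Muscle markers were occupied at 1 of 11, liver markers at 2 of 11 and germ cell markers at 1 of 14. Of 16 microglial and myeloid genes 2 were occupied, Elane (89.1 and 63.3), a neutrophil elastase known as a Gfi1 target in blood, and Cd68 (96.4 and 99.7). Cd68 lies beside other genes on chromosome 11, and the peak is not assigned to it alone. The pan-microglial markers Aif1, Csf1r, Cx3cr1 and Itgam were in neither list.

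Occupancy rose steeply with CpG content. Promoters were called CpG-rich at an observed to expected CpG ratio of at least 0.6 with a GC content of at least 55%, and CpG-poor at a ratio below 0.4. Of 9763 genes with a CpG-rich promoter, 8310 had a reproducible peak (85.1%), against 63.2% of 4703 genes in the middle class and 572 of 7472 genes (7.66%) in the CpG-poor class. Over deciles of the CpG ratio the share went from 1.09% to 91.6%, and the share with a peak of the top decile from 0.228% to 29.2%. Of the 1453 CpG-rich genes without a reproducible peak, 1225 were in the list of tumor 1 only, 1 in that of tumor 2 only and 217 in neither. Their median percentile in tumor 1 was 58.0, against 88.9 for occupied CpG-rich genes. Among those highest in tumor 1 were the homeobox genes Tlx3 (94.0), Hhex (86.8), Dlx1 (83.5) and Tlx2 (83.2), which were picked after their values were seen. Of 39 Hox genes 24 were CpG-rich and 1 of these was occupied.

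**Figure D3:**
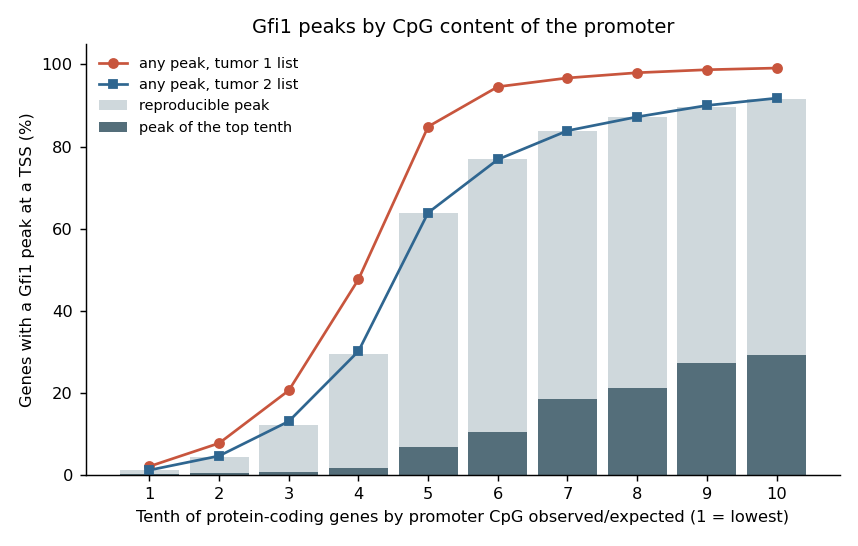
Share of coding genes with a Gfi1 peak at a TSS, in percent, by decile of the observed to expected CpG ratio of the promoter (1 = lowest), as light bars for reproducible peaks, dark bars for peaks of the top decile and lines for each tumor's own list. The light bars climb from 1.09% to 91.6% and the dark bars from 0.228% to 29.2%.

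Promoters shared by a pair of genes were occupied more often than others. Of 2410 coding genes with a divergent partner, a coding gene that starts within 1000 bp on the other strand, 94.1% had a peak and 34.6% had a peak of the top decile, against 49.1% and 8.78% of the others. Among CpG-rich genes 98.0% of divergent and 82.3% of other promoters had a reproducible peak. In the list of tumor 1 these shares were 100% and 97.3%, so the gap was small there. In that of tumor 2 they were 98.0% and 82.3%. A single peak can count for both genes of a pair. Pex13 and Pus10 have this layout. The peaks themselves reached further into the gene than away from it, measured from its outermost annotated start. Any further starts of the same gene lie downstream of that point, and their part in this was not tested. Over 7299 peaks that covered the start of a single coding gene, the median reach was 795 bp upstream and 1222 bp downstream in tumor 1, and 810 and 1216 bp in tumor 2. It was longer downstream in 80.1% and 75.1% of these peaks. In the top decile the medians were 1124 and 1705 bp in tumor 1 and 1220 and 1894 bp in tumor 2.

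Noncoding genes followed the same pattern. Bidirectional promoter lncRNAs, which start beside a coding gene by definition, had a peak at 155 of 190 (81.6%), and antisense RNAs at 29.2%. The share was 11.3% for lincRNAs and 1.57% for processed pseudogenes. More than 2000 bp from any coding TSS it was 9.32% for antisense RNAs and 6.76% for lincRNAs. The strand of a peak is unknown, so a noncoding gene at a shared promoter cannot be separated from its coding neighbour.

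At the low end of the ranking, the 10 lowest peaks at a coding TSS had mean percentiles of 2.49 to 6.81 and widths of 612 to 1002 bp in tumor 1. The lowest was near Abca4, a transporter of photoreceptors (0.927 in tumor 1 and 4.06 in tumor 2), followed by a peak 394 bp from a start of the arginine methyltransferase gene Prmt1 (3.31 and 4.22) and by 1 at Fam117a. A low peak did not mark a gene of low occupancy. For 8 of these 10 genes another start had a higher peak, with a mean percentile of 98.8 at Prmt1, 89.4 at Pmf1 and 63.1 at Abca4. The exceptions were 4930451I11Rik and Gm7173. The widest peaks were not the highest. A peak of 39353 bp covered Cirbp, which encodes a cold-inducible RNA-binding protein, together with Midn, Atp5d and Cbarp, but the partner in tumor 2 measured 11082 bp. A peak of 26901 bp at Rpl18, Sphk2 and the clock gene Dbp was as wide in tumor 2 (26188 bp). All 5 of the widest lay between mean percentiles of 82.2 and 92.3.

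Away from promoters, 4711 peaks (22.8%) lay more than 5000 bp from any TSS, 52.0% of them in introns and 41.5% between genes. The highest was 21772 bp from the start of Hfe2 (chr3:96498502-96503400, 98.6 in tumor 1 and 99.9 in tumor 2). The next were 5624 bp from Shf (98.6 and 99.8), 42261 bp from the chemokine receptor gene Ccr1 (98.6 and 99.5) and 11152 bp from Tex44. A peak 70810 bp from Irf2bp2 (chr8:126664796-126669167) stood at 95.01 in tumor 1 and 99.87 in tumor 2. Some genes held many distal peaks within their body, though no rate over all gene bodies stands beside these counts. Gse1, which encodes a protein found with Lsd1-CoREST complexes, held 44, and Arid1b, a subunit of the BAF remodeling complex, held 36. Over the length of the gene this was 125 and 102 distal peaks per Mb. Ksr1 held 18 (135 per Mb), Zmiz1 17 (81.9 per Mb), Bcl11b 13 (139 per Mb) and Lnx2 13 (217 per Mb), while the 17 in the longer gene model of Fgfr2 came to 5.74 per Mb. These genes were chosen after their values were seen.

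The letters of the Gfi1 core, AAATCA on either strand, were not gathered at peak midpoints. They were found within 100 bp of the midpoint in 6.36% of all reproducible peaks, 4.76% of peaks at a TSS and 9.13% of distal peaks. At positions shifted 3000 bp from the distal peaks they were found in 10.7%, and in a sample of the genome in 18.005%. Peaks of tumor 2 alone held them in 15.4%. Median GC content was 53.2% around distal midpoints, 48.3% at the shifted positions and 48.8% in peaks of tumor 2 alone, and its part in these shares was not tested. A longer form, AAATCACNG, was present in 46 distal peaks (0.976%) against 0.637% of shifted positions. For 4 of the highest-ranked distal peaks with the long form the sequence is given with a match of the long form in capitals and 30 bases on each side (GRCm38), named by the nearest coding gene. Their mean percentiles run from 77.4 at Cd34, a surface protein of blood stem cells, to 63.5 at Upk3b, whose flank holds a second match left in lower case.

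Cd34 (58460 bp away, chr1:194879629-194879697, plus strand): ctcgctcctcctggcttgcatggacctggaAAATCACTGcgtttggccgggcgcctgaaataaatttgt
Fsip1 (52191 bp away, chr2:118204072-118204140, minus strand): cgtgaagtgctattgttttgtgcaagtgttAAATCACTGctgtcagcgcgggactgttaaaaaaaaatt
Fos (16715 bp away, chr12:85492254-85492322, minus strand): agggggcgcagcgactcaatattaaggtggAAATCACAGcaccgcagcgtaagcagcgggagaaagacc
Upk3b (6314 bp away, chr5:136046331-136046399, minus strand): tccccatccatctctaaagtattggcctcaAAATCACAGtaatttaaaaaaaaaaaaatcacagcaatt

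Letters of common promoter factors were frequent at TSS peaks, but no more so than in promoters at large. The windows of peaks were centered on the peak midpoint and not on the start of the gene. The part of this offset in the comparison was not tested. The ETS letters CCGGAAG were within 100 bp of 7.62% of TSS midpoints and 0.943% of shifted positions, while 9.34% of all coding promoters held them. For the GC box GGGCGG the shares were 37.9%, 3.84% and 42.1%. The E-box CACGTG, the preferred site of Myc and Max, was in 4.85% of TSS peaks and 5.47% of promoters. In distal peaks the E-box CAGCTG was found in 17.96% against 10.7% of shifted positions, and the NFI letters TTGGCA in 15.6% against 9.88%. Within 200 bp of TSS midpoints there were 0.404 ETS matches per kb against 0.0623 at 1000 to 2000 bp, and 0.275 Gfi1 core matches against 0.701. A match is not evidence of binding, and its absence within this window says nothing of the factor.

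**Figure D4:**
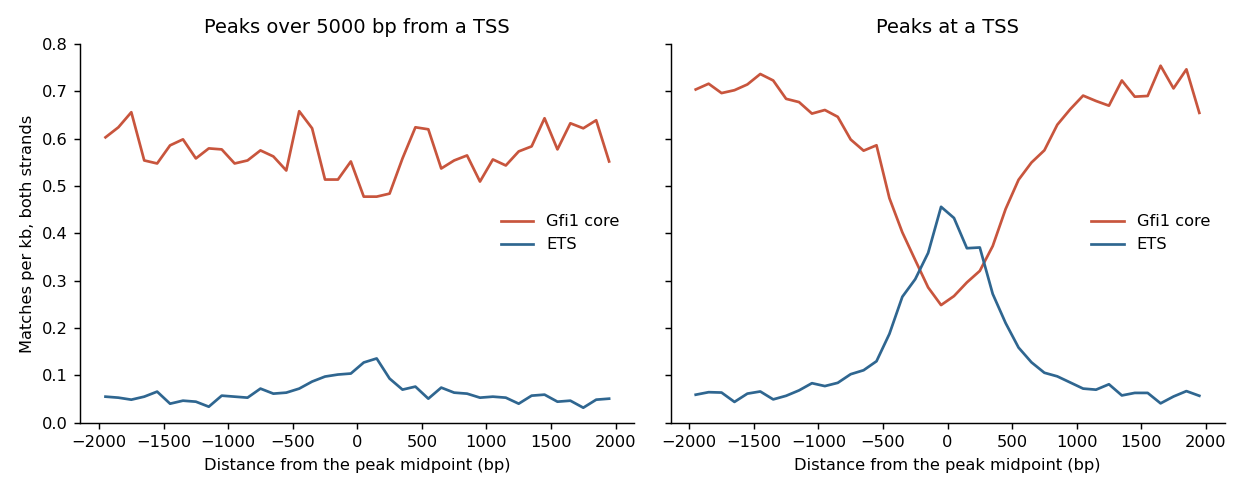
Matches per kb of the Gfi1 core (AAATCA) and the ETS letters (CCGGAAG), both strands, by distance from the peak midpoint in bp, for peaks more than 5000 bp from a TSS (left) and at a TSS (right). ETS matches peak at the midpoint of TSS peaks, while Gfi1 core matches dip there and stay nearly level around distal midpoints.

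Among chromosomes, the X stood apart. Autosomes had 8.52 reproducible peaks per Mb, chromosome 11 the most with 15.7, and the X chromosome had 1.63. Of coding genes 55.8% were occupied on autosomes, from 47.0% on chromosome 14 to 64.9% on chromosome 8, and 246 of 948 (25.9%) on the X chromosome. In the separate lists the X share was 44.5% in tumor 1 and 26.1% in tumor 2. No X gene had a peak of the top decile, against 12.3% of autosomal genes. Among CpG-rich genes 133 of 215 (61.9%) on the X chromosome were occupied against 85.6% on autosomes. In the list of tumor 1 the shares were 96.7% and 97.8%, and in that of tumor 2 they were 61.9% and 85.6%. The Y chromosome held 1 reproducible peak and none at its 183 coding genes. In the separate lists the Y share was 0.546% in tumor 1 and 1.09% in tumor 2. The Y genes Ddx3y (33.4) and Eif2s3y (29.2) were in the list of tumor 2 and not in that of tumor 1. The sex of the tumor cells and their number of X and Y copies were not determined here, and their part in these shares was not tested.

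**Figure D5:**
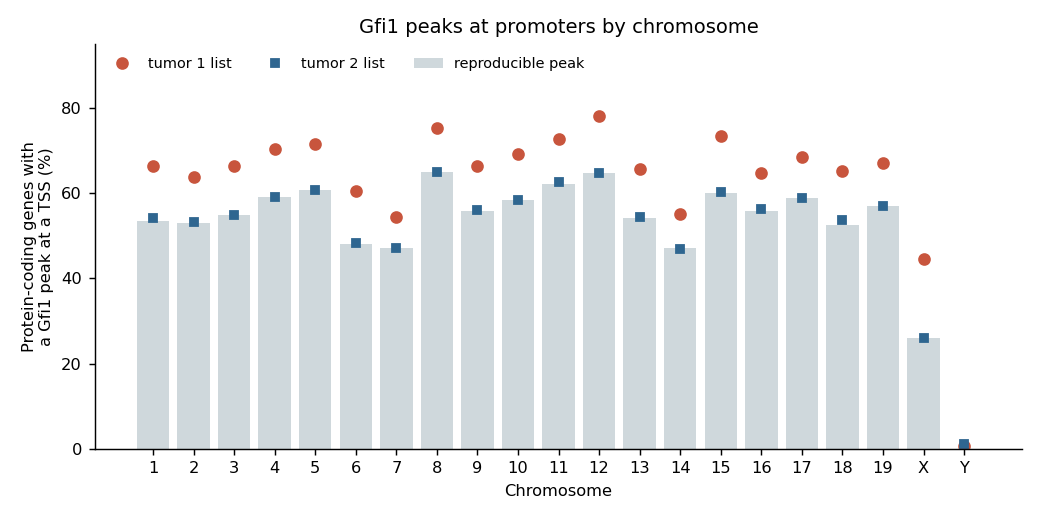
Share of coding genes with a Gfi1 peak at a TSS, in percent, for each mouse chromosome, as bars for reproducible peaks and points for each tumor's own list. Autosomes lie between 47.0% and 64.9%, the X chromosome at 25.9% and the Y chromosome at 0.

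Along the autosomes and sex chromosomes, peaks followed GC-rich, gene-dense domains. In 2660 windows of 1 Mb, the quintile with the highest GC content held 12860 peaks (62.2%) and 43.0% of coding genes, and the quintile with the lowest held 223 peaks (1.08%). Peaks per CpG-rich promoter went from 1.48 in the lowest quintile to 2.51 in the highest. The densest window (chr10:80000001-81000000) had 99 peaks and 48 of 53 coding genes occupied, Mbd3, Mknk2 and Lmnb2 among the highest. Windows on chromosome 7 (chr7:19000001-20000000, 84 peaks) and around Jund (chr8:70000001-71000000, 75 peaks) were also gene-dense. A window of chromosome 2 (chr2:167000001-168000000) had 83 peaks with 14 coding genes, and a window of chromosome 8 (chr8:120000001-121000000) had 76 peaks with 10 coding genes, Gse1 among them.

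No reproducible peak lay in 724 of the 2660 windows (27.2%). Of these 273 had no coding gene, 85 were on the X chromosome and 89 on the Y. They held 144 CpG-rich promoters in all, and 384 of the empty windows had a peak in tumor 1 and 89 in tumor 2. Outside the Y chromosome the longest stretch without a peak ran for 9.51 Mb (chr15:16116294-25621329). Its 6 coding genes included 4 cadherins, Cdh9, Cdh10, Cdh12 and Cdh18, adhesion molecules of neurons and other cells. The next 3 were on the X chromosome (9.10, 8.89 and 8.27 Mb). After them came an 8.18-Mb stretch of chromosome 8, whose coding genes were Cdh8 and Cdh11. These stretches had a GC content of 36.8% to 38.3%.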

How the data were processed

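Gfi1 ChIP-seq of 2 tumors was deposited as peak lists in BED form. According to the study's methods and processing notes, the authors aligned reads with BWA 0.6.2 to mm10, removed duplicates with Picard and called peaks with MACS against input, for each tumor on its own. The deposited score in column 5 has no stated definition and was used only as a rank. The lists hold no read counts, so no interval could be set. The study states library depths, and by these tumor 2 was sequenced more deeply than tumor 1.

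Peaks were joined, ranked and annotated with Python 3.11.15, numpy 2.4.6, pandas 2.3.3, scipy 1.17.1, pysam 0.24.0 and samtools 1.23.1, using GENCODE M21 genes and the RefSeq genome of GRCm38.p6. TSSs of all annotated transcripts were used with 1000 bp on each side. The steps were tested on simulated data. Of the coding genes, 16539 matched the RefSeq promoter table by symbol. Genes were named by rule: the 20 highest peaks, the 10 highest distal and 10 lowest TSS peaks, up to 4 highest genes and 4 without a peak per list, the 5 widest peaks, windows and stretches, and Gfi1 and Myc. The members and gene lists were chosen with earlier results of these data known. Of the highest peaks 1, and some genes that the rule would name, are not reported here. Alternatives varied the tie rule, overlap, score minimum, TSS window, TSS set and motif window, and used each tumor alone. The Lsd1 ChIP lists were not used here.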

Additional observations from a re-analysis of the deposited data

How the results depend on the processing

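The values below were recomputed under other settings. A value counted as moved when it changed by more than the standard deviation between the values of the 2 tumors' own lists. By this rule 25 settings moved a value and 49 did not. Unmoved values could still change, as the share of empty windows did, from 27.2% to 33.0% with the upper 50% of each list. Keeping the upper 50% of each list by score left 11609 peaks, with 82.7% at a TSS, 42.7% at a TSS in the lowest decile, 45.3% of coding genes, 12.8% of X genes and 73.6% of CpG-rich promoters occupied. A TSS window of 5000 bp gave 77.2% of peaks at a TSS, 48.7% in the lowest decile and 11.4% of CpG-poor promoters, and a window of 500 bp gave 16.6% in the lowest decile. With TSSs of coding genes alone the shares at a TSS were 58.9% of all peaks, 94.5% in the top decile and 16.0% in the lowest. A motif window of 250 bp raised the share with the Gfi1 core from 6.36% to 15.6%. Using the list of each tumor alone gave 25078 to 36836 peaks, 50.6% to 56.5% at a TSS, 94.7% to 97.3% in the top decile and 22.0% to 25.7% in the lowest, 54.3% to 65.0% of coding genes, 26.1% to 44.5% of X genes, 84.0% to 97.5% of CpG-rich and 6.62% to 11.4% of CpG-poor promoters, 12.8% to 23.9% of windows empty and 6.17% to 8.54% of peaks with the Gfi1 core. For CpG classes these counts use the promoter itself (84.1% and 6.46%), not every TSS of the gene. In each setting the top decile lay at a TSS more often than the lowest, CpG-rich promoters were occupied more often than CpG-poor ones, and X genes less often than coding genes as a whole. No paired analysis was possible because no result comes from a test. The limit is set by 2 tumors of 1 group: tumor 1 had the longer list and the shallower library, and the part of depth in the peaks found in a single tumor was not tested.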

Other observations

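Peaks that tumor 1 had alone held a repeat family that tumor 2 almost lacked. The letters AAGATGGCG, a form of the YY1 site, lay within 100 bp of the midpoint in 824 of the 16151 peaks found only in tumor 1 (5.10%), against 181 of the 20685 reproducible peaks (0.875%) and 5 of the 3857 found only in tumor 2. Of the 824, 796 had their midpoint in repeat-masked sequence and 38 lay at a TSS. They were weak, with a median percentile of 25.3 and a median width of 958.5 bp. A stretch of 49 bases around these letters was identical in 381 of them, and a second stretch in 110. Both are shown with the searched letters in capitals.

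First stretch: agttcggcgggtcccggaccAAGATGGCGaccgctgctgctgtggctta
Second stretch: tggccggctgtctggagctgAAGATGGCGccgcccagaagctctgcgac

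The first stretch has 2571 exact copies in the genome (GRCm38), all repeat-masked and spread over 20 chromosomes, and 1296 of them (50.4%) lay in a peak of tumor 1 and none in a peak of tumor 2. Of 594 copies of the second, 352 (59.3%) lay in a peak of tumor 1 and 3 (0.505%) in a peak of tumor 2. The pattern was noticed in the data, and its cause was not tested.

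The highest peaks of tumor 1 without a partner were a pair over the 5S ribosomal RNA gene cluster (chr8:123604605-123624763 and chr8:123564566-123580589), both at the score of 3100. A peak at Gm26917 and AY036118 (chr17:39842779-39849260, percentile 95.1), the Tlx3 start (94.0) and the start of Bcor on the X chromosome (91.7) came next. In tumor 2 the highest was at Gas5, a host gene of small nucleolar RNAs (80.3), followed by Mbnl2 (79.7).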
